A study of Homo sapiens with 12 samples.

Results

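The 9 genes described here encode parts of the MHC class I antigen presentation pathway: the heavy chains HLA-B, HLA-C and HLA-E, the light chain B2M, the peptide transporter subunit TAP1, the loading factor TAPBP and the immunoproteasome subunits PSMB8, PSMB9 and PSMB10. They were chosen by symbol, and all 9 were present among the 12616 genes of the table. RNA was measured by 3′ end sequencing in MeWo and SkMel28, human melanoma cell lines that carry a hairpin RNA against MITF, the transcription factor of the melanocyte lineage, under a promoter switched on by doxycycline (Dox). Each line was kept for 8 days with 0 µg/ml Dox (MeWo control, SkMel28 control) or 1 µg/ml Dox (MeWo Dox, SkMel28 Dox), with 3 libraries per group and 12 in all. Per the labels MeWo grew in EMEM and SkMel28 in RPMI, so that line and medium cannot be told apart. Every group carries the hairpin, and no group here received Dox without it, and the effects of hairpin and drug cannot be told apart. Whether a hairpin line is a single clone, and whether the 3 libraries came from separate cultures, is not given in the sources used here. The p-values therefore measure the spread between these libraries, which may be technical.

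MHC class I molecules show peptides from inside the cell to CD8 T cells. Proteasomes cut proteins into peptides, and the inducible subunits PSMB8, PSMB9 and PSMB10 replace the constitutive catalytic subunits in the immunoproteasome. The TAP transporter moves peptides into the endoplasmic reticulum, where TAPBP (tapasin), CALR (calreticulin) and PDIA3 (ERp57) help to load them onto a heavy chain paired with B2M. The pathway is known to be raised by interferons, through JAK kinases and STAT factors, and by the transactivator NLRC5, while CIITA is the corresponding transactivator of MHC class II. Loss of class I display is a known route by which melanoma cells escape T cells.

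On hg38, with the GENCODE 44 annotation, 7 of the 9 genes lie in the MHC region of chromosome 6. HLA-E spans chr6:30489509-30494194 on the plus strand. On the minus strand HLA-C spans chr6:31268749-31272130, HLA-B chr6:31353872-31367067 and TAPBP chr6:33299694-33314284. PSMB8 (chr6:32840717-32844679, minus), TAP1 (chr6:32845209-32853816, minus) and PSMB9 (chr6:32844136-32859851, plus) are packed together, and PSMB9 overlaps each of the others on the opposite strand over its annotated span. B2M lies at chr15:44711358-44718851 on the plus strand and PSMB10 at chr16:67934506-67936864 on the minus strand. PSMB8-AS1, a measured gene on the plus strand, overlaps the annotated spans of PSMB9, PSMB8 and TAP1. The strand used for counting is not given in the sources used here, so reads of PSMB9 and of its antisense neighbours may not have been separated. Strand alone would not separate PSMB9 from PSMB8-AS1 where their transcripts overlap. In the last 500 bases of the canonical transcripts, where this assay reads, HLA-B and HLA-C shared 2.88% of their 50-base words with each other, and HLA-E, B2M, TAP1, TAPBP, PSMB8 and PSMB9 shared 0% with any other gene. PSMB10 shared 89.4% with an annotated gene that overlaps it on the same strand (ENSG00000261884), and its reads are uncertain to that extent. Both lines may carry HLA alleles that differ from the reference, and the effect of this on counting was not tested.

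The promoters of 4 of these genes are shown as 2 pairs. Below, HLA-C was called with Dox and its neighbour HLA-B was not. PSMB9 was called between the lines, and TAP1, which starts nearby and runs the other way, was not. The genes of a pair were not tested against each other. HLA-B and HLA-C promoters, which are near copies, come first, and the TAP1 and PSMB9 promoters follow. Each is the RefSeq window (GRCh38.p14) from 250 bases before to 50 bases after the start site, written 5′ to 3′ along the gene, with matches to the searched motifs in capitals.
HLA-B, chr6:31357130-31357429, minus strand: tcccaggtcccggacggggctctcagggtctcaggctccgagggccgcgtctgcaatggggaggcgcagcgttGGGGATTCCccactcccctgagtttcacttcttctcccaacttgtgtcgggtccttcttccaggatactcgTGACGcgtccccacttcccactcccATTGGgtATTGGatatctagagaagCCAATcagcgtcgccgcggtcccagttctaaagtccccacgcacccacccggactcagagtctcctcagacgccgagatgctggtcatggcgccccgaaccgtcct
HLA-C, chr6:31272043-31272342, minus strand: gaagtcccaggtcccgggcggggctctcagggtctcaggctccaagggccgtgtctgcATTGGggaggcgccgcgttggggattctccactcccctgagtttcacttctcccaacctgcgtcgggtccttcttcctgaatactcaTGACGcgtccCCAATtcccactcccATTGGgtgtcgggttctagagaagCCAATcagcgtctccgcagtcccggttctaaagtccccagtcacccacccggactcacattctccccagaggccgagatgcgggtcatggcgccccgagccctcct
TAP1, chr6:32853655-32853954, minus strand: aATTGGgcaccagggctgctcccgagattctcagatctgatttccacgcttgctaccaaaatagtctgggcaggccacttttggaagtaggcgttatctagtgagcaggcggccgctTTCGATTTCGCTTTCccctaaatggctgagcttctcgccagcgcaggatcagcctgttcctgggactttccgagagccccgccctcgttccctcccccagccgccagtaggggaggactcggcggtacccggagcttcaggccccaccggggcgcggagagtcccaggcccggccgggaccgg
PSMB9, chr6:32853942-32854241, plus strand: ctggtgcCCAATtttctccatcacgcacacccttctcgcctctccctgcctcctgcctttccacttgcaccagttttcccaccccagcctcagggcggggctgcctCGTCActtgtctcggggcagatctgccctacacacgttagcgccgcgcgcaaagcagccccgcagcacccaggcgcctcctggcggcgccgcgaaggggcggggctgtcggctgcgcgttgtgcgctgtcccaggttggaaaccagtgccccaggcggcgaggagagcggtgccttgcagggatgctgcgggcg

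RefSeq windows were found for 8 of the 9 genes, HLA-E having none in the table used. The HLA-B and HLA-C windows were identical at 269 of 304 aligned columns (88.5%). The start sites of TAP1 and PSMB9 lie 488 bases apart on opposite strands, and their windows overlap by 13 bases. The motifs searched, on both strands, were the interferon-stimulated response element (ISRE, GAAANNGAA), the STAT site GAS (TTCNNNGAA), the κB site of NF-κB (GGGNNTTCC), the X2 or CRE core (TGACG), the CCAAT box (CCAAT) and the E-boxes CACGTG and CATGTG that MITF is known to bind. Over all 35116 RefSeq windows of this length, 8.11% held the ISRE, 7.66% the GAS, 6.58% the κB site, 24.6% TGACG, 34.6% CCAAT, 7.26% CACGTG and 11.1% CATGTG. HLA-B held a κB match from -177 to -169. HLA-C, which reads ggggattctcc at that place, held none by the letters searched. Both held TGACG, at -106 in HLA-B and -105 in HLA-C. CCAAT was matched 3 times in HLA-B and 4 times in HLA-C. TAP1 held 2 overlapping ISRE matches between -133 and -119, and so did B2M and TAPBP elsewhere in their windows. PSMB10 held 1, from -21 to -13. HLA-B, HLA-C, PSMB8 and PSMB9 held none by the ISRE letters searched. Neither E-box nor the GAS was matched in any of the 8 windows. For every motif, a missing match says only that the searched letters are not in the window. Other forms of the same sites were not searched.

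**Figure D1:**
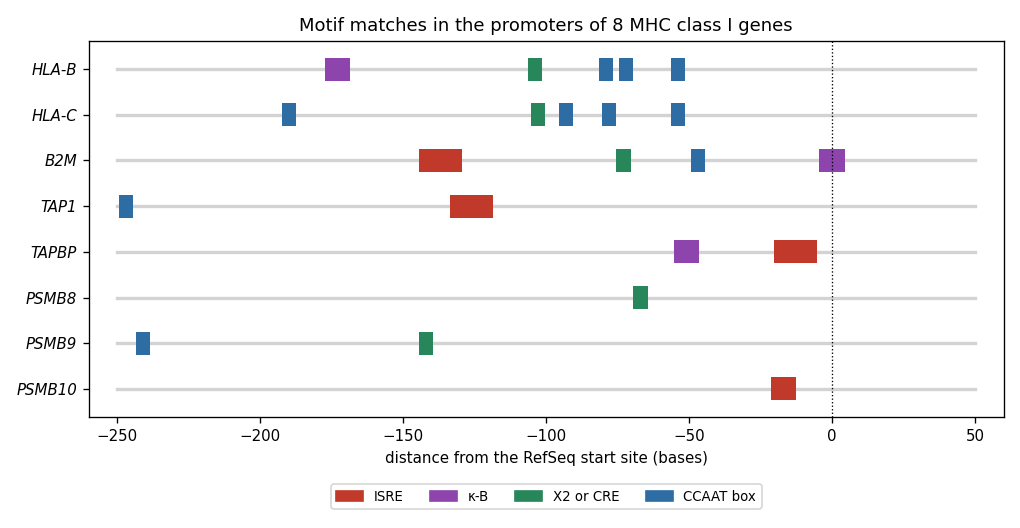
Motif matches in the promoter windows of 8 MHC class I genes, drawn by distance in bases from the RefSeq start site. Coloured blocks are matches on either strand: HLA-B and HLA-C share the X2 or CRE core and CCAAT boxes, and the κB block is drawn in HLA-B and not in HLA-C. Blocks show the searched letters only, and other forms of the same sites were not searched.

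Libraries held 2568187 to 3714608 reads, and 1 read was worth 0.278 to 0.389 on the scale used below, reads per 1000000 of effective library size. MeWo Dox 1 stood apart from the other 2 MeWo Dox libraries: their counts differed by 17.79 and 15.58 in chi-square per degree of freedom, against 1.592 to 5.859 for every other pair of replicates. Results in MeWo are therefore also given without it where it matters. MITF itself was lower with Dox by 0.79 in log2 in MeWo and by 0.49 in SkMel28, both called. The 8 melanocyte lineage markers were all listed, and their summed level fell from 13080 to 13280 in MeWo control to 6706 to 8414 in MeWo Dox, and from 11490 to 12840 to 7657 to 8001 in SkMel28. PMEL was the largest part of this sum, at 7450 ± 243 and 3261 ± 262.5 in MeWo. In MeWo 6 of the 8 were called lower and 2 higher, DCT (949.5 ± 23.1 to 1790 ± 159) and S100B (62.9 ± 3.27 to 248 ± 5.74), and in SkMel28 3 were called lower, 1 higher (S100B) and 4 not called. The shares of all genes called lower and higher were 8.12% and 8.58% in MeWo, and 5.04% and 5.88% in SkMel28. Of the markers of other cell types, 1 of 7 leukocyte genes was listed (CD68), 2 of 6 fibroblast genes (DCN and LUM, summed level 6.044 to 47.79), 0 of 4 keratinocyte genes and 0 of 4 endothelial genes. CD68 was at 78.2 to 101 in SkMel28 control and at 18.7 to 22.97 in SkMel28 Dox, and at 132 to 151 and 57.5 to 147 in the MeWo groups. The part of these marker changes in the results below was not tested, and in bulk RNA fewer cells of a type and less RNA per cell cannot be told apart.

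With Dox, 3 of the 9 genes were called in MeWo, B2M and TAPBP higher and HLA-C lower, where 16.7% of all genes were called in either direction. In SkMel28 HLA-C alone was called, lower, against 10.9% of all genes. The change differed between the lines for HLA-C and TAPBP, 2 of 9, against 7.09% of all genes. A gene was called when its adjusted p from limma was under 0.05, with Benjamini-Hochberg adjustment over all 12616 genes. The median change of the 9 genes, in log2 of (value + 1), was -0.10 in MeWo and -0.31 in SkMel28, and over all genes it was 0 and 0.0029. The genes are taken below by role. The share of all genes whose groups did not overlap was not counted, so that statements on overlap describe the values only.

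**Figure D2:**
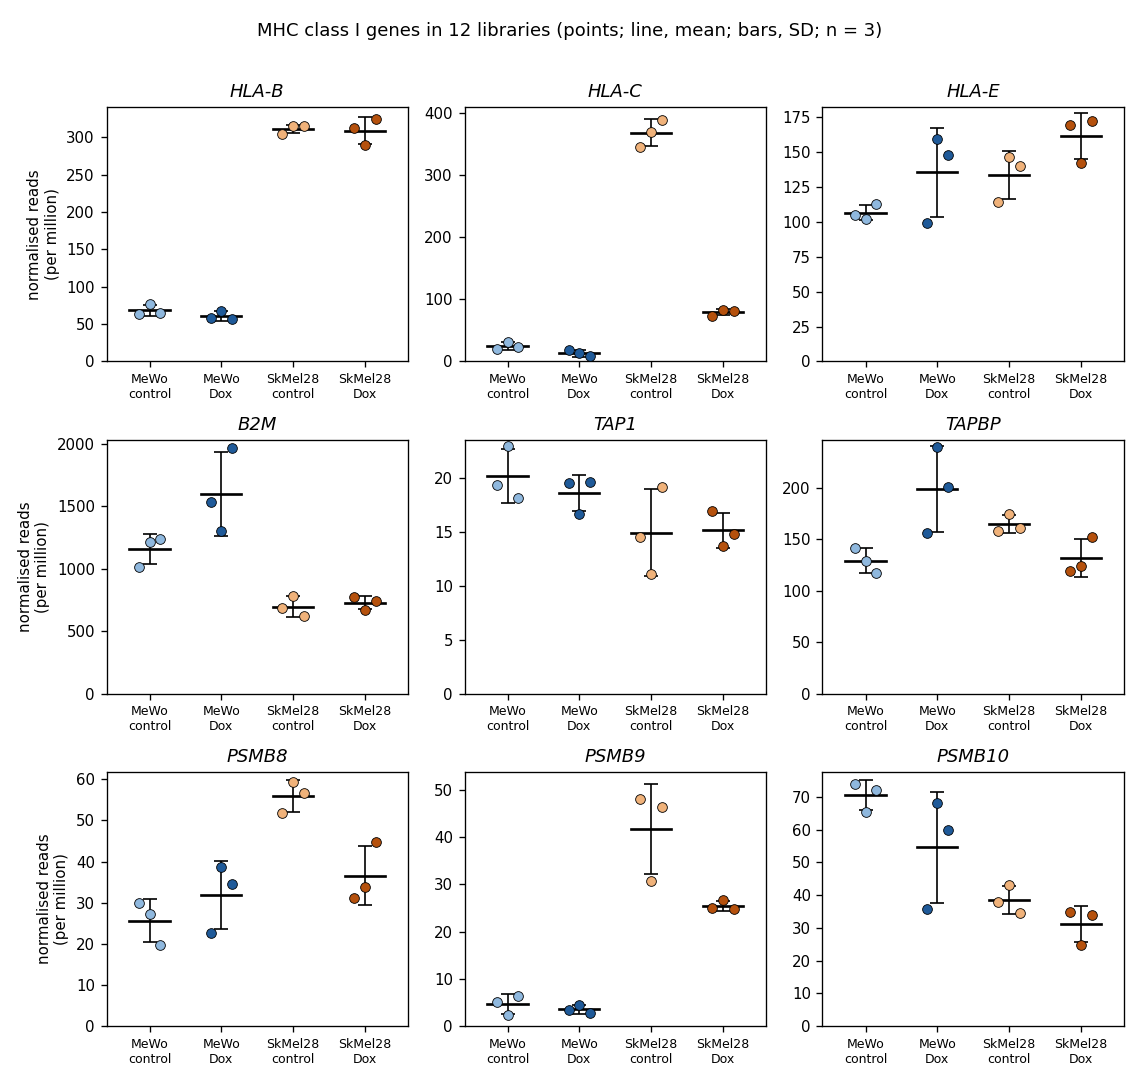
Level of each of the 9 genes in the 12 libraries, in normalised reads per 1000000 on linear axes that start at 0. Points are libraries, lines are means and bars are SD (n = 3). HLA-C stands at 346 to 390 in SkMel28 control and at 73.6 to 83.6 in SkMel28 Dox, while HLA-B stays between 290 and 325 in both.

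Among the heavy chains, which bind the peptide and face the T cell receptor, HLA-C changed most. SkMel28 control libraries held 346, 370 and 390, and SkMel28 Dox libraries 73.6, 83.6 and 81.9. The mean went from 369 ± 22.0 to 79.7 ± 5.32 (SD, n = 3), and each Dox library was below each control library. This is a fall of 2.20 in log2 (SE 0.22, limma adjusted p = 4.27e-06), and the mean fell by 78.4%. In MeWo HLA-C was much lower to begin with, at 20.2, 31.9 and 22.7 without Dox and 19.1, 12.9 and 8.13 with it, from 24 to 82 reads per library. The MeWo groups also did not overlap, though MeWo Dox 1 came close to the lowest control. The log2 change was -0.90 (SE 0.22, adjusted p = 0.00961) and the mean fell by 46.2%.

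The HLA-C change was smaller in MeWo than in SkMel28 by 1.30 in log2 (SE 0.311, 95% interval 0.64 to 1.96, limma adjusted p = 0.0183). This difference ranged from 1.02 to 1.65 and lost its call in 5 of 21 alternatives, without the variance trend and without MeWo control 1, MeWo control 3, SkMel28 control 3 or SkMel28 Dox 1 (adjusted p up to 0.0601). The HLA-C call in SkMel28 held in all 22 alternatives, with changes from -2.30 to -2.14. In MeWo the call was lost under scaling to the spike-ins (-0.64, limma adjusted p = 0.0572), a scaling that raised the median change of all genes in MeWo by 0.225 in log2. It was also lost without MeWo control 2 or MeWo Dox 3, and with MeWo fitted alone. Without MeWo Dox 1 the MeWo change was -1.18.

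HLA-B, the neighbouring gene with the similar promoter shown above, gave no called change with Dox. In SkMel28 it was at 305, 315 and 315 in control and at 313, 290 and 324 with Dox, a difference of -0.012 in log2 (95% interval -0.255 to 0.231, limma adjusted p = 0.973). In MeWo it was at 63.9, 76.5 and 64.8 in control and at 58.1, 67.8 and 56.6 with Dox. That difference was -0.17 (95% interval -0.41 to 0.077, adjusted p = 0.355), and it became 0.10 under scaling to the spike-ins. The groups overlapped in both lines.

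HLA-E, a less variable class I molecule that is known as a ligand of NKG2A on natural killer cells, was also not called. In MeWo it was at 105, 102 and 112 without Dox and at 99.3, 159 and 148 with it, where the low value is MeWo Dox 1. The log2 difference was 0.32 (SE 0.158, limma adjusted p = 0.188), and without MeWo Dox 1 it was 0.52 and called (adjusted p = 0.00304). Under scaling to the spike-ins it was 0.59 and also called (limma adjusted p = 0.0291). The SkMel28 libraries were at 114, 146 and 140 against 170, 142 and 172, a difference of 0.28 (SE 0.158, adjusted p = 0.314).

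B2M, the light chain that every classical heavy chain needs to reach the surface, had the highest counts of the 9, from 1613 to 5798 reads per library. In MeWo it was at 1016, 1213 and 1241 in control and at 1534, 1302 and 1964 with Dox. The Dox libraries were all above the control libraries, and the rise was 0.45 in log2 (SE 0.141, limma adjusted p = 0.0362), or 38.3% of the mean. This call was lost when any MeWo control library, or MeWo Dox 3, was left out, without the variance trend and with MeWo fitted alone, 6 of 22 alternatives, with a change of 0.29 to 0.73 over all 22. In SkMel28 B2M was at 689, 784 and 618 against 776, 673 and 738, groups that overlapped (0.069, SE 0.141, adjusted p = 0.828). The difference between the lines was 0.38 and not called (95% interval -0.038 to 0.80, adjusted p = 0.243).

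For peptide transport and loading, TAP1 and TAPBP gave different pictures. TAP1, which forms the transporter with TAP2, was at 19.3, 22.9 and 18.1 in MeWo control and at 19.5, 16.7 and 19.6 in MeWo Dox. SkMel28 had it at 14.5, 11.1 and 19.2 in control and at 16.9, 13.7 and 14.8 with Dox. The groups overlapped in both lines, with log2 differences of -0.10 (95% interval -0.54 to 0.33) in MeWo and 0.047 (-0.38 to 0.48) in SkMel28, on 35 to 67 reads per library. The sign of these small TAP1 differences turned in both lines under scaling to the spike-ins, to 0.15 and -0.047.

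TAPBP, which bridges the heavy chain to TAP, was at 141, 129 and 117 in MeWo control and at 156, 240 and 200 in MeWo Dox. All Dox libraries were above all controls, with a rise of 0.60 in log2 (SE 0.146, limma adjusted p = 0.00914), or 53.9% of the mean. Without MeWo control 3, and with MeWo fitted alone, this call was lost, and without MeWo Dox 1 the rise was 0.76. In SkMel28 TAPBP was at 158, 174 and 161 in control and at 119, 124 and 153 with Dox. There the Dox libraries were all below the controls, but the difference of -0.32 (SE 0.146) was not called (adjusted p = 0.185). The changes in the 2 lines differed by 0.92 (SE 0.207, 95% interval 0.49 to 1.36, adjusted p = 0.0130), a call that was kept in 20 of 21 alternatives and lost when the variance was fitted without a trend.

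Of the immunoproteasome subunits, none was called by limma with Dox in either line, while PSMB8 and PSMB9 in SkMel28 had an unadjusted p of 0.00794 and 0.0285. PSMB8 was at 29.95, 27.2 and 19.8 in MeWo control and at 22.7, 38.7 and 34.5 in MeWo Dox (0.29, SE 0.205, limma adjusted p = 0.359), and without MeWo Dox 1 the difference was 0.52 and called. In SkMel28 it was at 51.8, 59.3 and 56.7 in control and at 31.2, 33.8 and 44.7 with Dox. These groups did not overlap, and the mean was lower by 34.7%, but the log2 difference of -0.62 (SE 0.205) missed the threshold (adjusted p = 0.0650). It passed in 4 of 22 alternatives, among them the fit without SkMel28 Dox 3, the highest of the Dox libraries. The difference between the lines was 0.91 (95% interval 0.30 to 1.52, adjusted p = 0.0634). It was called in 4 of 21 alternatives, among them spike-in scaling (1.27, limma adjusted p = 0.0109) and the fit without MeWo Dox 1 (1.13, adjusted p = 0.00248).

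PSMB9 was at 48.2, 30.8 and 46.4 in SkMel28 control and at 24.9, 26.7 and 24.8 in SkMel28 Dox. Here too every Dox library was below every control, the log2 difference was -0.67 (SE 0.278, limma adjusted p = 0.148), and edgeR and DESeq2 on the recovered reads called it. In MeWo PSMB9 was near the lower end of what these libraries count, with 6 to 20 reads each, at 5.18, 2.33 and 6.48 in control and 3.51, 4.55 and 2.71 with Dox. The 95% interval in MeWo ran from -0.83 to 0.34, which takes in both 0 and the size seen in SkMel28. PSMB10 was at 74.0, 65.3 and 72.2 in MeWo control and at 35.8, 68.2 and 59.95 in MeWo Dox, with MeWo Dox 1 the low value, and at 37.9, 43.2 and 34.5 against 34.7, 24.7 and 33.8 in SkMel28. Its differences were -0.41 (SE 0.202) and -0.31 (SE 0.202), neither called, and without MeWo Dox 1 the first was -0.14.

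**Figure D3:**
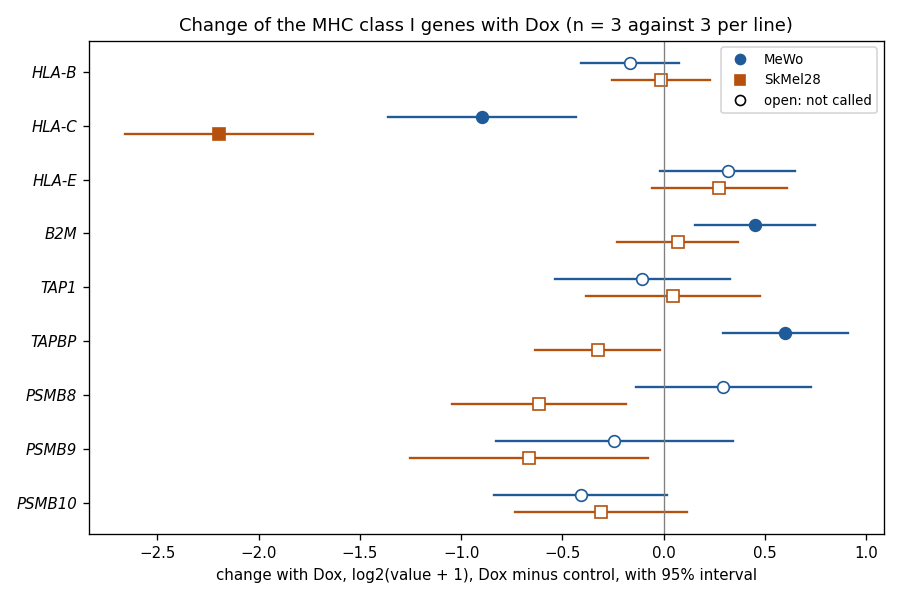
Change of the 9 genes with Dox in log2 of (value + 1), Dox minus control, with the 95% interval from limma, for MeWo (circles) and SkMel28 (squares). Filled symbols were called. HLA-C lies at -0.90 and -2.20, and B2M at 0.45 and TAPBP at 0.60 in MeWo are the other filled symbols.

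Without Dox, HLA-C, PSMB9, HLA-B and PSMB8 were higher in SkMel28 than in MeWo, and B2M and PSMB10 were lower. These are 6 of the 9 genes, where 51.4% of all genes were called between the control groups. HLA-C was 14.8 times higher in SkMel28 (3.86 in log2, SE 0.22, limma adjusted p = 1.78e-10), PSMB9 8.96 times (2.97, SE 0.278), HLA-B 4.55 times (2.17, SE 0.115) and PSMB8 2.18 times (1.11, SE 0.205). B2M was lower in SkMel28, at 0.602 of the MeWo mean (-0.73, SE 0.141), and so was PSMB10, at 0.546 (-0.86, SE 0.202). HLA-E (0.32, adjusted p = 0.104), TAPBP (0.35, adjusted p = 0.0560) and TAP1 (-0.43, adjusted p = 0.0853) were not called.

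With Dox in both lines 6 of the 9 were again called, against 53.6% of all genes, 3 in each direction. HLA-C remained higher in SkMel28 by 2.56 in log2, HLA-B by 2.33 and PSMB9 by 2.55, and B2M (-1.12), PSMB10 (-0.76) and TAPBP (-0.58) were lower. PSMB8 was not called there (0.21, limma adjusted p = 0.420). For HLA-C the order of the groups was MeWo Dox, MeWo control, SkMel28 Dox and SkMel28 control, with no overlap between neighbours. For HLA-B and PSMB9 the lines were apart, and the neighbouring groups within a line did not differ beyond the limits of the test. These contrasts share their libraries with the Dox contrasts above. Beyond the 9 genes, SkMel28 control was higher than MeWo control for the heavy chain gene HLA-F (3.61 in log2) and the pseudogene HLA-J (1.48), for JAK2 (1.73), for PSMB7 (0.53), and for the class I-like PROCR (2.15), AZGP1 (1.86) and MICA (1.59). It was lower for PSMB5 (-0.60) and for RELA (-1.35), a subunit of NF-κB. Of the interferon-stimulated genes BST2 was at 6.58 in log2 and IFI27 was at -6.37, and IFITM2 had 1 read over SkMel28 control against 61 over MeWo control. BST2 had 2 to 4 reads per MeWo control library, and IFI27 had 1 to 5 per SkMel28 control library. The sizes given for BST2 and IFI27 therefore depend on the 1 added to each value. The class II genes HLA-DPA1, HLA-DQB1 and CD74 had 677, 355 and 194 reads over SkMel28 control and 3, 1 and 1 over MeWo control.

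Across the 12 libraries, with each line centred on its own mean, the 9 genes did not vary together as a set. Pearson's r between pairs ran from -0.671 (HLA-C and HLA-E) to 0.850 (TAPBP and PSMB8), with 0.551 (HLA-C and PSMB9) the next highest. Other pairs were near 0 or negative, such as HLA-B and HLA-E (-0.035) and B2M and PSMB9 (-0.509). These values are descriptions over libraries that share groups and depth. The genes whose centred profile was most like the mean of the 9, among 8064 genes with a mean of at least 10, were BIRC5 (r = 0.972), RAB11FIP4 (0.965), POMT2 (0.963), RAB17 (0.961) and GGA1 (0.956). BIRC5 was at 96.6, 97.4 and 108 in SkMel28 control and at 68.3, 60.5 and 68.3 in SkMel28 Dox. MeWo Dox 1 held 95.8, below the other 2 MeWo Dox libraries at 143 and 120, so that the likeness also follows the library that stands apart.

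The rest of the class I pathway was read from a list of 21 genes, of which 20 were measured. In MeWo 2 were called higher and 3 lower (median -0.083), and in SkMel28 0 higher and 4 lower (median -0.17). Of all genes 8.58% were called higher and 8.12% lower in MeWo, and 5.88% and 5.04% in SkMel28, so that the share called higher in MeWo (10%) is near that of all genes. HLA-F, a non-classical heavy chain, was at 220, 317 and 237 in SkMel28 control and at 141, 127 and 86.1 with Dox (-1.13, SE 0.275, limma adjusted p = 0.0121), a call lost without control 2 or Dox 3. In MeWo HLA-F was near 20, at 7.20 to 21.4, and not called, while without MeWo Dox 1 its difference was -0.72 and called (limma adjusted p = 0.0466). The pseudogenes HLA-H and HLA-J had few reads: HLA-H was at 14 reads over the SkMel28 control libraries and 0 over the Dox libraries, at least 4.82-fold lower with a floor of 3 reads over the group, and HLA-J was at 9 reads over MeWo control and 0 over MeWo Dox, at least 2.87-fold lower. In SkMel28 HLA-J went from 4.34 ± 0.983 to 0.610 ± 0.278 with Dox and was called lower.

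The chaperones CALR and PDIA3 of the loading complex rose with TAPBP in MeWo. CALR was at 312, 276 and 285 in MeWo control and at 357, 669 and 670 in MeWo Dox, with MeWo Dox 1 the lowest of the Dox libraries. The rise was 0.90 in log2 (SE 0.183, limma adjusted p = 0.00239). PDIA3 was at 101, 87.4 and 110 in MeWo control and at 158, 189 and 209 in MeWo Dox, a rise of 0.89 (SE 0.137, adjusted p = 1.93e-04). In SkMel28 neither was called (-0.21 and 0.038), and the difference between the lines was called for both, at 1.11 (SE 0.259, adjusted p = 0.0160) and 0.85 (SE 0.193, adjusted p = 0.0137). CANX (calnexin), which folds the new heavy chain, was not called in either line (-0.38 and 0.28). In MeWo it was at 449.5, 501.6 and 484.8 in control and at 540.1, 276.7 and 331.2 with Dox. There MeWo Dox 1 stood above the controls and the other Dox libraries below them. TAP2, the partner of TAP1, was not called either (0.048 and -0.35). The constitutive catalytic subunits PSMB5, PSMB6 and PSMB7 gave 0 calls of 3 with Dox in either line (limma). Of all genes 16.7% were called in MeWo and 10.9% in SkMel28. PSMB5 in MeWo and PSMB6 in SkMel28 had unadjusted limma p under 0.05 (0.0154 and 0.0175). PSMB5 in MeWo was called by DESeq2, under spike-in scaling (0.55, limma adjusted p = 0.0248) and without MeWo Dox 1 (0.31, limma adjusted p = 0.0196). The last fit also called PSMB7 lower in SkMel28 (-0.26, limma adjusted p = 0.0497).

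Among 26 measured regulators of class I transcription, 4 were called higher and 3 lower in MeWo, and 2 higher and 1 lower in SkMel28 (medians -0.15 and 0.086). As shares these are 15.4% and 11.5% in MeWo, against 8.58% and 8.12% of all genes. In SkMel28 they are 7.69% and 3.85%, near the 5.88% and 5.04% of all genes. STAT2 (-1.47) and JAK2 (-1.18), which carry interferon signals, fell in MeWo, JAK2 from 8.26 ± 1.41 to 3.16 ± 1.21, while IFNGR2, a chain of the interferon-γ receptor, rose from 94.8 ± 6.83 to 187 ± 13.2 (0.97, SE 0.108).

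IRF1, an interferon-induced activator of class I promoters, was at 3.17, 1.94 and 3.24 in MeWo control and at 7.34, 4.93 and 5.76 in MeWo Dox, on 5 to 23 reads. It rose by 0.89 (SE 0.272, limma adjusted p = 0.0319), a call lost in 8 of 21 alternatives, DESeq2 and the fits without any 1 MeWo control, Dox 1 or Dox 3 among them. In SkMel28 IRF1 was at 1.81 to 3.56 in both groups. NLRC5 was at 0.777 to 5.08 in MeWo and 0.594 to 2.78 in SkMel28, on 2 to 15 reads, and was not called in either line (0.72 and -0.46, adjusted p = 0.168 and 0.460). Under scaling to the spike-ins its MeWo change was 0.95 and called (limma adjusted p = 0.0455). With that scaling its difference between the lines was 1.48 and also called (limma adjusted p = 0.0392). NFKB1 rose in SkMel28 (0.62, SE 0.193, adjusted p = 0.0487), a call lost in 17 of 22 alternatives, and RELA was not called in either line (-0.16 and 0.0073).

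**Figure D4:**
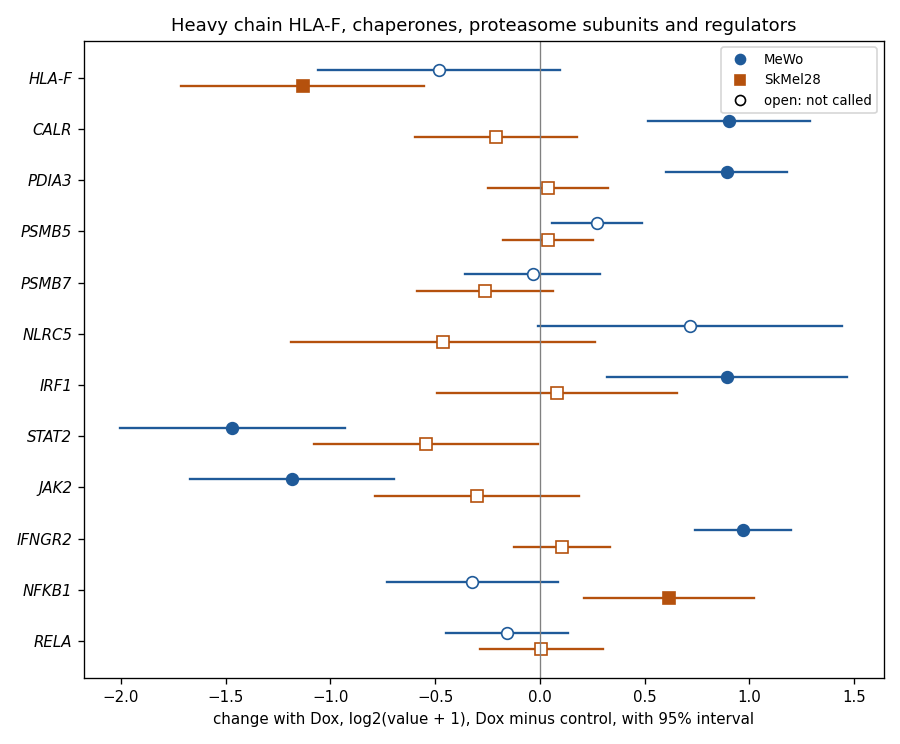
Change with Dox of other class I pathway genes and regulators, in log2 of (value + 1) with the 95% interval, for MeWo (circles) and SkMel28 (squares), filled where called. CALR and PDIA3 lie right of 0 and filled in MeWo, STAT2 and JAK2 left of 0 and filled in MeWo, and HLA-F left of 0 and filled in SkMel28.

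The MHC class II genes, which serve the presentation of peptides from outside the cell to CD4 T cells, moved the other way from HLA-C where they were called. CTSS, a member of this list, was instead lower with Dox in SkMel28, at 3.63 ± 1.73 and 2.13 ± 1.35, and not called. Of 12 measured class II genes 8 were called higher in SkMel28, where 5.88% of all genes were called higher, and 3 in MeWo, where 8.58% were, and no class II gene was called lower by limma. The median change was 1.56 in SkMel28, or 1.73 with the 1 gene that had no control reads set to its bound, and 0.15 in MeWo, where 6 of the 12 had at most 3 reads over each group of 3 libraries. HLA-DRA was at 17.5, 14.6 and 18.0 in SkMel28 control and at 142, 163 and 163 with Dox, and its mean was 9.34 times higher (3.15 in log2, SE 0.325, adjusted p = 5.73e-06). CD74, the invariant chain, went from 20.5 ± 5.37 to 123 ± 14.9 in SkMel28, HLA-DRB1 from 2.06 ± 0.868 to 18.0 ± 3.79 and HLA-DQA1 from 0.953 ± 0.564 to 9.60 ± 0.504, all called. HLA-DPA1 (71.4 ± 12.3 and 81.5 ± 3.28) and HLA-DQB1 (37.5 ± 10.5 and 46.6 ± 0.509) were already high in SkMel28 control and were not called.

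In MeWo the class II genes stood on few reads. CD74 had 1 read over the 3 control libraries and 41 over the Dox libraries, and HLA-DRA 1 and 37, ratios of 42.9 (95% exact interval 7.29 to 1740) and 38.7 (6.53 to 1570) that cover counting error only. HLA-DRB1 was at 1.44, 0 and 0.324 in control and at 4.79, 3.79 and 2.71 with Dox. CIITA, the class II transactivator, had 0 reads over MeWo control and 10 over MeWo Dox, at least 3.49-fold higher with a floor of 3 reads over the group. In SkMel28 CIITA had 3 reads over control and 47 over Dox, a ratio of 15.2 (95% exact interval 4.88 to 76.1). The class II calls were 3 in MeWo in 21 of 22 alternatives, with 1 when MeWo was fitted alone, and 6 to 9 in SkMel28.

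**Figure D5:**
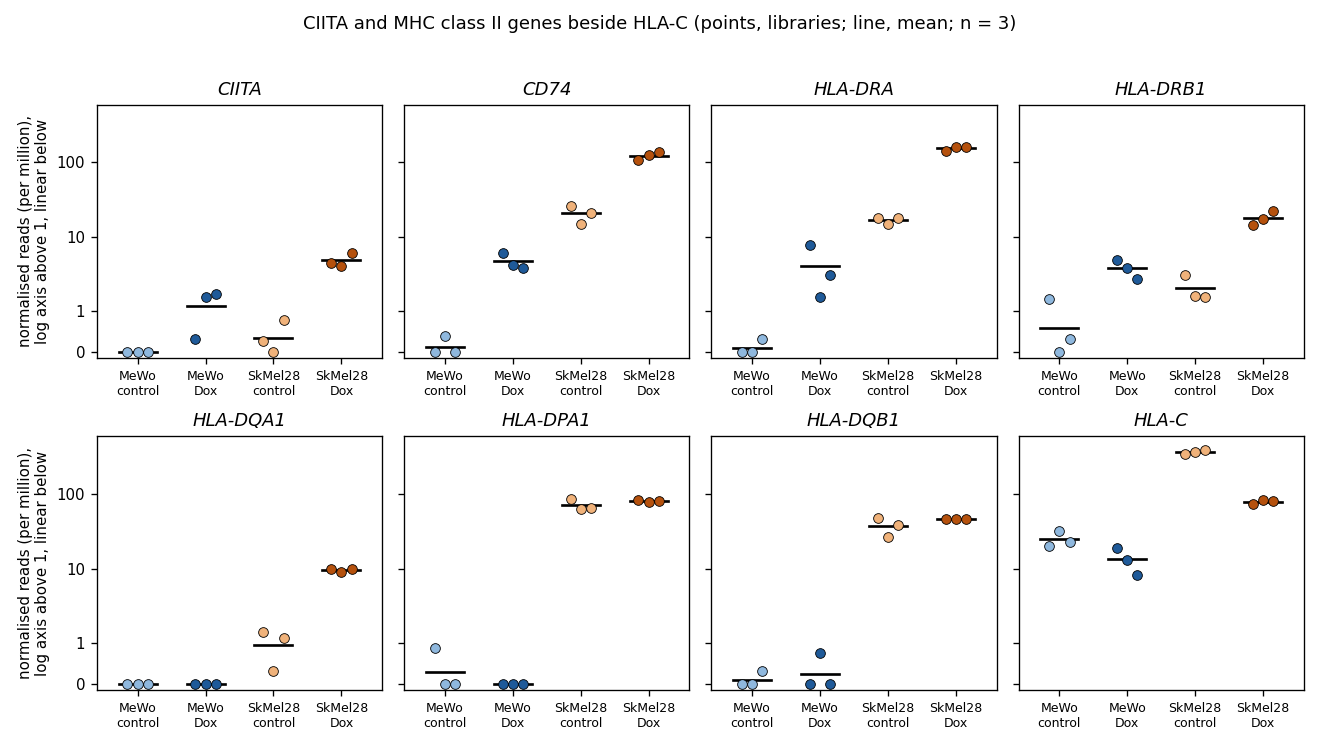
CIITA and 6 MHC class II genes beside HLA-C in the 12 libraries, in normalised reads per 1000000 (log axis above 1, linear below), with lines at the mean of 3. In SkMel28 HLA-DRA goes from 14.6 to 18.0 without Dox to 142 to 163 with it, and HLA-C from 346 to 390 down to 73.6 to 83.6.

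Of 7 measured class I-like molecules and ligands of the natural killer receptor NKG2D, MICA fell in MeWo, from 15.98 ± 1.35 to 8.78 ± 0.809 (-0.80, SE 0.157, limma adjusted p = 0.00185, and -0.55 and not called under spike-in scaling, adjusted p = 0.0982), and AZGP1 rose there from 1.99 ± 1.16 to 12.4 ± 5.25. In SkMel28 limma called 0 of them, and AZGP1 had the smallest unadjusted p (0.0552, a difference of 0.71). Of 33 measured interferon-stimulated genes, 3 were called higher and 5 lower in MeWo and 2 higher and 4 lower in SkMel28 (medians -0.29 and -0.028). The shares called higher, 9.09% and 6.06%, are near the 8.58% and 5.88% of all genes, and the shares called lower were 15.2% and 12.1% against 8.12% and 5.04%. In MeWo IFI27 (-1.46), IFI44 (-1.37) and HERC5 (-1.30) fell and WARS (0.99) rose, and in SkMel28 ISG15 (-1.85) and XAF1 (-0.90) fell and GBP2 (2.86) and IFITM3 (1.13) rose. XAF1 had 14 reads over SkMel28 control and 3 over SkMel28 Dox, and its call was lost in 10 of 21 alternatives, among them spike-in scaling (limma adjusted p = 0.0603) and a fit with the replicate number as a block (adjusted p = 0.0545).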

How the data were processed

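The deposited table holds a normalised signal per gene and library, made by the authors with edgeR and not raw counts: reads divided by an effective library size, times 1000000. The submitters' notes name FastQC 0.11.7, cutadapt 2.8, STAR 2.5.1b and hg38, while the counting tool, annotation and strand are not given in the sources used here. The table lists 12683 features, 67 of them spike-ins, each at 1 or more in at least 3 libraries. In every library 100% of values were whole multiples of the value of 1 read (tolerance 0.01 reads), which gave back whole reads, 2568187 to 3714608 per library. Intervals and floors on reads cover counting error only. Libraries were QuantSeq Forward 3′ end libraries, whose values are not divided by transcript length, and levels are not compared between genes.

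Spike-ins were left out and log2(value + 1) of 12616 genes was fitted with limma 3.58.1 (lmFit, eBayes with a mean-variance trend) in R 4.3.3, with 4 group means over 12 libraries, two-sided tests and Benjamini-Hochberg adjustment over all genes. The fit was tested on simulated data. Alternatives included edgeR 4.0.16 (the test of the study) and DESeq2 1.42.0 on the recovered reads. The genes, gene lists and tests were chosen with earlier results of these data known. The rule named the 9 genes, MITF, a few regulators (NLRC5 and IRF1 among them), the 4 called genes with the smallest adjusted p per list and line, the 3 largest called control differences per list and the 5 genes of most similar profile. Genes of the marker lists are given by sums, and some named genes are not reported here. Figures were drawn with matplotlib.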

Additional observations from a re-analysis of the deposited data

Results flagged for a closer look

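These are the named genes whose change with Dox differed between the lines by the test of the difference itself (MeWo change minus SkMel28 change in log2 of (value + 1), limma adjusted p under 0.05). Among the 9 genes these were HLA-C, at 1.30 (adjusted p = 0.0183), and TAPBP, at 0.92 (adjusted p = 0.0130). HLA-C fell in both lines, and TAPBP was called higher in MeWo and was not called in SkMel28. Of the loading chaperones, CALR was at 1.11 and PDIA3 at 0.85. Of the regulators, IFNGR2 was at 0.86 and NFKB1 at -0.94, the latter a call lost in 16 of 21 alternatives (limma adjusted p = 0.0597 with the replicate block and 0.271 under spike-in scaling). Of the MHC class II genes, HLA-DQA1 was at -2.48, but with 0 reads in all 6 MeWo libraries this is the SkMel28 change alone and no comparison of the lines. Of the interferon-stimulated genes, ISG15 was at 1.51 and WARS at 0.88, and GBP2 was at -2.10, IFI27 at -1.57 and HERC5 at -0.79. IFI27 had 1 to 6 reads per SkMel28 library, the ISG15 call was lost in 9 of 21 alternatives, and the HERC5 call in 14 of 21 (limma adjusted p = 0.0718 with the replicate block). Of the marker genes, S100B was at 0.82, CD68 at 1.52, MLANA at -1.10, TYRP1 at -0.90 and LUM at -1.16. The TYRP1 call was lost in 11 of 21 alternatives and the LUM call in 15 of 21 (limma adjusted p = 0.0519 with the replicate block).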

How the results depend on the processing

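Over 45 results (9 genes in 5 comparisons) and 981 alternatives, 941 kept their status as called or not called. Of the others, 18 lost a call, 22 gained one and 0 reversed a called change. Direction was checked for called changes only. Uncalled differences that changed sign, such as HLA-B in MeWo and TAP1 in both lines under spike-in scaling, are among the 941. The count called in MeWo with Dox was 0 with MeWo fitted alone, and 1 to 5 when single libraries were left out. It was 1 without MeWo control 2, control 3 or Dox 3, and 5 without MeWo Dox 1, which added HLA-E and PSMB8. In SkMel28 the count was 2 with edgeR and with DESeq2, which added PSMB9, and 2 with SkMel28 fitted alone, which added PSMB8, and 1 to 2 when libraries were left out. For the difference between the lines the count was 0 without the variance trend and 1 to 3 when libraries were left out. It was 1 without MeWo control 1, MeWo control 3, SkMel28 control 3 or SkMel28 Dox 1, where HLA-C lost its call. The counts between the lines, 6 and 6, ranged from 6 to 8. Where a fit left a group with 2 libraries, its spread was pooled over groups. With the replicate block the counts stayed at 3, 1, 2, 6 and 6, and among the other named genes NFKB1 and XAF1 in SkMel28 and the line differences of NFKB1, HERC5 and LUM lost their calls. Whether the replicate numbers pair the libraries is not known. Deviations of same-numbered libraries correlated at -0.181 to 0.042 in MeWo and -0.046 to 0.159 in SkMel28. Those of differently numbered libraries correlated at -0.164 to 0.199 in MeWo and -0.199 to 0.174 in SkMel28. With 3 libraries a group these values cannot settle pairing. Spike-in scaling shifted the median of all genes by 0.225 in MeWo and -0.082 in SkMel28. Fits without MeWo Dox 1 called 3913 genes in MeWo against 2107, and 3115 against 894 for the difference between the lines, and with MeWo alone 813. Alternatives for the named genes outside the 9, MITF apart, and for the class II counts were chosen after seeing the data. The causes of these moves were not tested. At 3 libraries a group, and 6 to 20 reads for PSMB9 in MeWo, the precision is limited.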
